A study of Mus musculus with 15 samples.

Results

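The nuclear factor I (NFI) family was represented by its 4 genes, Nfia, Nfib, Nfic and Nfix, taken by symbol from the 27803 genes listed over all count tables. Each of the 4 was listed and was followed by cell class, by stage of the granule neuron lineage and by treatment, with the animal as the replicate. NFI proteins bind DNA as dimers through a conserved domain near their amino terminus, recognise a palindrome built from the sequence TTGGC and its complement, and activate or repress genes depending on their partners. In the developing cerebellum NFIA, NFIB and NFIX are known for their part in the maturation of granule neurons, including axon growth, migration, dendrite formation and the onset of synaptic genes, and in other parts of the brain for the move of progenitors from making neurons to making glia. NFIC is best known for its part in the formation of tooth roots.

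Transcripts were counted by Drop-seq in 15 mice of the C57BL/6 strain, 5 in each of 3 groups. The method pairs single cells with barcoded beads in droplets, and each unique molecular identifier (UMI) stands for 1 captured transcript, counted at its 3′ end. The WT group was normal cerebellum at day 7 after birth (P7), when cerebellar granule neuron progenitors (CGNPs) divide, and received no treatment. Both tumor groups were medulloblastomas at P15 from M-Smo mice of the genotype Math1-Cre:SmoM2/EYFP loxP/loxP, in which Cre acts in the Atoh1 (Math1) lineage, CGNPs included, and switches on SmoM2, an active form of the Hedgehog signal transducer SMO. Vehicle-treated and vismodegib-treated mice received 3 daily doses, the latter of 75 mg/kg of the SMO inhibitor vismodegib, so both tumor groups carried both alleles. Cells of WT were captured on a device of PDMS and those of tumors on one of glass, so that age, genotype and device differ together between vehicle-treated tumors and WT and cannot be told apart.

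After filters 37946 cells were kept. Before filters, the table of an animal held, over all its barcodes, 2310474 to 5952919 UMIs in WT, 4307404 to 17708677 in vehicle-treated and 2601001 to 10922460 in vismodegib-treated mice. No 2 tables shared more than 13 barcodes. The SmoM2-EYFP transcript stood at 17.3 to 41.1 CPM (UMIs per 1000000 UMIs of the library) in tumors and at 0 to 0.45 CPM in WT, as the labels give it. A first principal component was taken from the summed CGNP-like profiles of the 10 tumors after the mean of each treatment had been subtracted. It could therefore not show treatment, and it held 43.6% of the variance left within treatments. On it vehicle-treated tumors 1 and 3 and vismodegib-treated tumors 1 and 2 lay apart from the other 6. In CGNP-like cells these 4 had 4140.5 to 5076 CPM of Nfib against 2328 to 3921 CPM. Their part in the results was not tested beyond the fits given with a term for this division and without each animal in turn.

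Cells were clustered without the 4 members and named from markers. Granule lineage cells fell into 4 stages, rebuilt here and named after the nodes of the study. Node A-like cells expressed genes of S to M phase such as Top2a and Ube2c, and Node B-like cells expressed progenitor and early S phase genes such as Atoh1 and Mcm3. One of the 3 tumor Node B-like clusters, cluster 6, hardly stood out for its Node B markers, with a mean log2 fold of 0.060 over other tumor cells and none of them among its 10 leading genes. Node C-like cells expressed genes of early differentiation such as Nhlh1 and Tubb3, and Node D-like cells later neuronal genes such as Pcp4. All 4 stages together are called CGNP-like and made up 69.5 ± 2.75% of the cells of WT, 94.0 ± 1.73% of vehicle-treated and 88.8 ± 4.01% of vismodegib-treated animals (SD, n = 5 each). WT Node A-like cells were 1 cluster led by mitotic genes, whereas tumor Node A-like cells were 3 clusters, of which 2 were led by S phase genes. A call of the class of each single cell by its marker scores gave the same class in 70.6% of cells, and 5.93% of cells lay near a cut.

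In GENCODE M21 on the GRCm38 build, Nfia lies at chr4:97772734-98118874 on the plus strand, and Nfib at chr4:82290173-82705750, Nfic at chr10:81396186-81455635 and Nfix at chr8:84699876-84800344 on the minus strand. All 4 are protein-coding. Nfib shares strand and position with Gm11267 and Nfic with Mir1191b. On the opposite strand Nfia has E130114P18Rik, Nfib has n-R5s188, Gm11266, Gm11268 and Gm11269, Nfic has Gm16104, and Nfix has Lyl1 and G430095P16Rik. The sources used here do not say whether the authors counted by strand, so counts from these overlaps cannot be told apart.

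By group mean Nfib was the most abundant member in each class measured in at least 3 animals, and its highest mean in each group was in Node C-like cells. In WT its means in GABAergic interneuron-like (2916 CPM) and GABAergic progenitor-like cells (2385 CPM) lay above that of CGNP-like cells as a whole (2258 CPM). In vascular fibroblast-like cells of 3 tumors Nfic lay above it. In Node C-like cells of WT its level ranked 16 among the genes detected, and in those of vehicle-treated and of vismodegib-treated tumors it ranked 6. Since a UMI counts 1 molecule whatever the length of the gene, these levels can be set beside each other, although capture may differ between genes. In CGNP-like cells Nfib stood at 1833, 2048, 2194, 2451 and 2763 CPM in WT animals 1 to 5, at 4579.9, 2328, 4440.1, 3065 and 2734 CPM in vehicle-treated tumors and at 4140.5, 5076, 3921, 2951 and 2968 CPM in vismodegib-treated tumors. All 5 vismodegib-treated tumors lay above the 5 WT cerebella, and the vehicle-treated tumors overlapped with both. Nfia ranked 107, 40 and 36 in CGNP-like cells of the 3 groups, with means of 951 ± 120.5, 1546 ± 577 and 1445 ± 366 CPM (SD, n = 5 each). Nfix followed at 814 ± 108, 809 ± 129 and 955 ± 200.5 CPM. Nfic was the scarce member of the lineage, at 181 ± 18.4, 171 ± 8.82 and 186 ± 27.6 CPM.

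**Figure D1:**
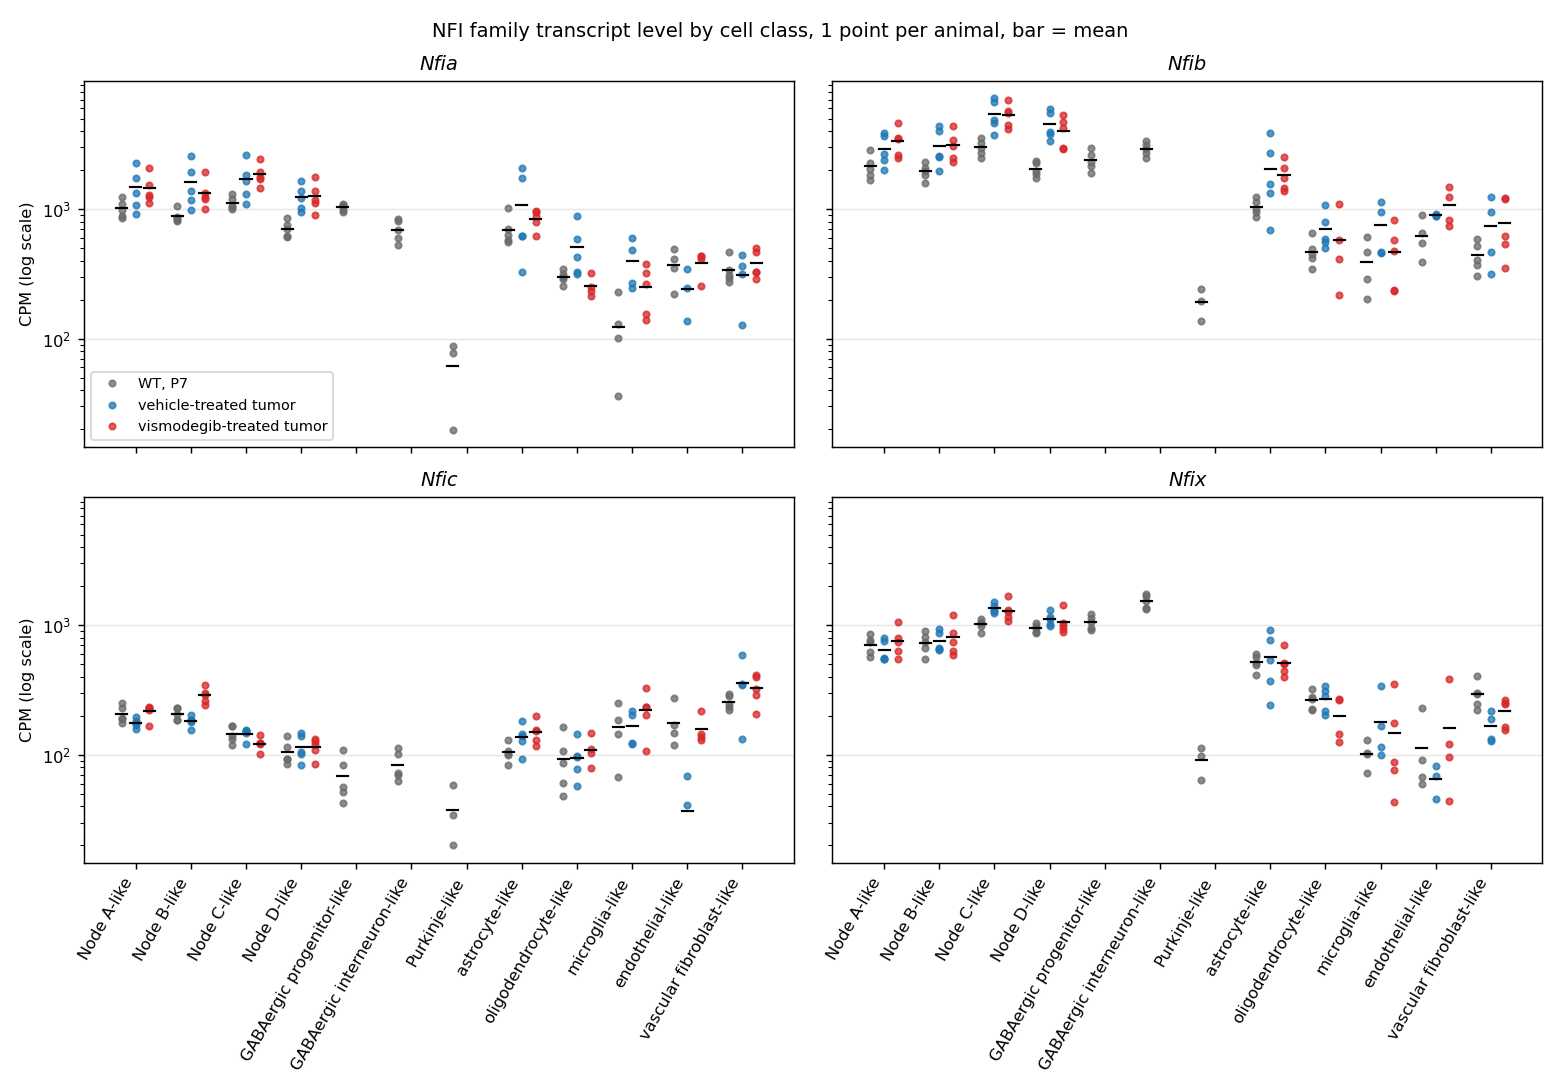
Level of each NFI gene in each cell class, in CPM on a logarithmic axis, with 1 point per animal and the 3 groups in separate colors. Nfib stands above the other members in granule lineage classes, and Nfic is the member that reaches its highest WT mean in vascular fibroblast-like cells (256 CPM). The endothelial-like cells of vehicle-treated tumor 1 had no UMI of Nfic and are not drawn on this axis.

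Across the classes of WT cerebellum the members had different orders of level, given here as a description. Nfia was highest in Node C-like cells at 1122 ± 129 CPM, within the spread of GABAergic progenitor-like cells at 1031 ± 62.8 CPM and Node A-like cells at 1013 ± 157 CPM. Nfib was likewise highest in Node C-like cells at 2994 ± 414 CPM, within the spread of GABAergic interneuron-like cells at 2916 ± 335 CPM. Nfix was highest outside the granule lineage, in GABAergic interneuron-like cells at 1528 ± 185 CPM, where the lowest animal (1333 CPM) lay above the highest animal of Node C-like cells (1119 CPM). These are the interneurons that carry GABA as their transmitter and express Pax2 and Gad1 at this age. In the same cells Nfic stood at 84.0 ± 22.5 CPM, below its level in Node A-like cells at 208 ± 31.3 CPM. Granule lineage genes (Barhl1, Neurod1 and Atoh1) stood in these GABAergic classes at 23.4% and 21.9% of their CGNP-like level, and the Nfib level was above the part such RNA would give in all 5 animals of both.

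Nfic had its highest WT mean in vascular fibroblast-like cells, the collagen-expressing cells around vessels and in the meninges, at 256 ± 32.8 CPM (n = 5), next to Node A-like cells at 208 ± 31.3 CPM, whose range overlapped. In these fibroblast-like cells Nfic was close to Nfix (294 ± 70.8 CPM) and Nfia (338 ± 77.0 CPM), whereas in the granule lineage it was far below both. Purkinje-like cells, the large output neurons of the cerebellar cortex, had the lowest WT means of all 4 members, Nfia (61.8 ± 36.9 CPM), Nfib (191 ± 52.9 CPM), Nfic (37.8 ± 19.6 CPM) and Nfix (91.4 ± 24.7 CPM), over 3 animals with enough cells. Unipolar brush-like cells could be measured in 1 animal, with 11 cells. Among glia, astrocyte-like cells of WT had 1038 ± 148 CPM of Nfib and oligodendrocyte-like cells 469 ± 114 CPM. Microglia-like cells of WT had 393 ± 183 CPM of Nfib in 4 animals and 124 ± 79.6 CPM of Nfia.

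A pair of clusters of tumor cells were left unnamed. One of 332 cells was led by Cbln3 and Vsnl1 among others, genes of neurons late in maturation, and held Nfib at 1218 ± 533 CPM in 4 vehicle-treated and at 1480.1 ± 486 CPM in 4 vismodegib-treated tumors. This was below the Node D-like range of 3357 to 5884 CPM and 2935 to 5349.9 CPM in each. In the same cells Nfic was at 211 ± 30.8 and 218 ± 33.0 CPM, against Node D-like means of 115 and 115 CPM. The other unnamed cluster, of 45 cells led by Rgs5 and Acta2, could be measured in 1 animal.

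Along the granule lineage Nfia, Nfib and Nfix were higher in Node C-like than in Node A-like cells in 15 of 15 animals, and Nfic was lower in 15 of 15. The stages were named from genes of the same cells, so this order is a description. For Nfib in WT the Node C-like level was 2485, 2716, 2985, 3258 and 3524 CPM against 1689, 1833, 2055, 2269.9 and 2860.5 CPM in Node A-like cells of the same 5 animals. Its peak was in Node C-like cells in all 15 animals, at a mean ratio to Node A-like cells of 1.41 in WT, 1.87 in vehicle-treated and 1.62 in vismodegib-treated animals. For Nfix the same ratio was 1.46, 2.15 and 1.74, with the peak in Node C-like cells in 4, 5 and 5 of 5 animals. Nfia rose least, by ratios of 1.11, 1.17 and 1.30, and it was lowest in Node D-like cells in 5, 4 and 4 of 5 animals.

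Nfic ran the other way, with ratios of 0.701, 0.831 and 0.565. In WT its level went from 252, 229, 177, 190.3 and 191 CPM in Node A-like cells to 93.1, 84.9, 93.2, 115 and 141 CPM in Node D-like cells of animals 1 to 5, with no overlap. Node D-like cells had the lowest level in 4, 4 and 3 of 5 animals. The stage of its peak differed between groups, being Node B-like in 2 WT, 4 vehicle-treated and 5 vismodegib-treated animals and Node A-like in the other animals.

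**Figure D2:**
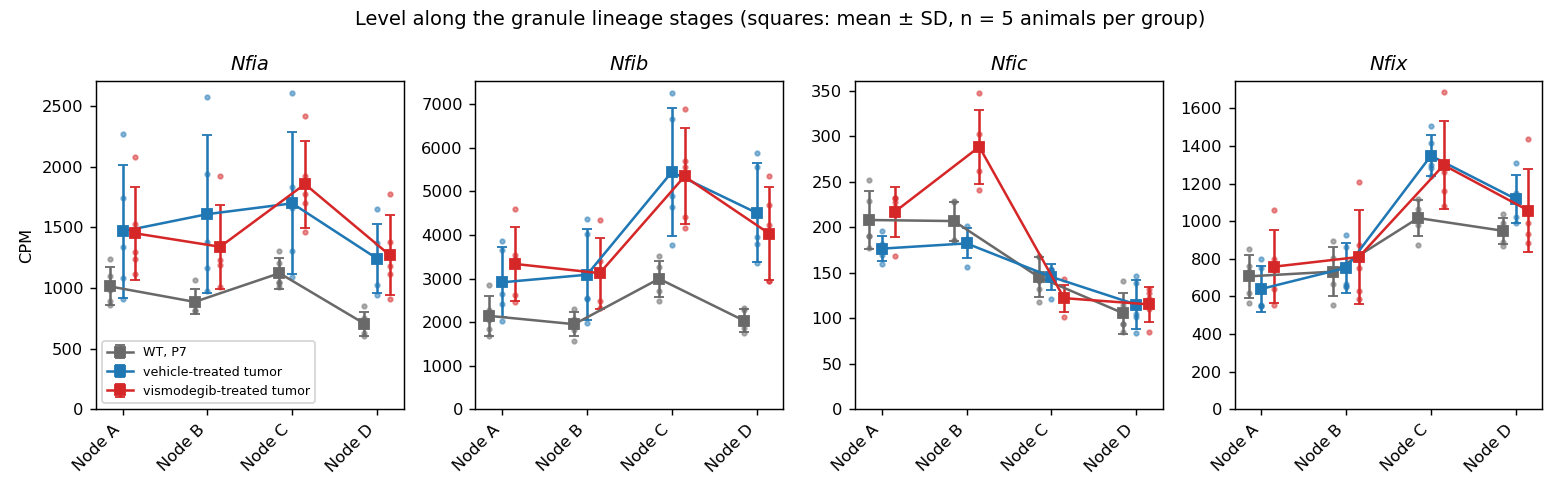
Level of each NFI gene (CPM) along the 4 stages of the granule lineage in the 3 groups. Small points are single animals, and squares with bars, joined by lines, are the mean ± SD of 5 animals. Nfia, Nfib and Nfix stand higher in Node C-like than in Node A-like cells in 15 of 15 animals, and Nfic stands lower in 15 of 15.

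Summed over the 4 members, NFI transcripts made up a mean of 3776 to 5278 CPM in the stages of WT, 5197 to 8635 CPM in those of vehicle-treated tumors and 5560 to 8620 CPM in those of vismodegib-treated tumors. Nfib took 51.6 to 64.1% of this sum over stages and groups, Nfia 17.8 to 28.1%, Nfix 12.6 to 25.1% and Nfic 1.46 to 5.57%. In Node D-like cells the share of Nfib was 53.5 ± 1.10% in WT and 64.1 ± 2.95% in vehicle-treated tumors, and that of Nfix 25.1 ± 1.83% and 16.4 ± 2.53% (SD, n = 5). These shares are a description with no test.

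**Figure D3:**
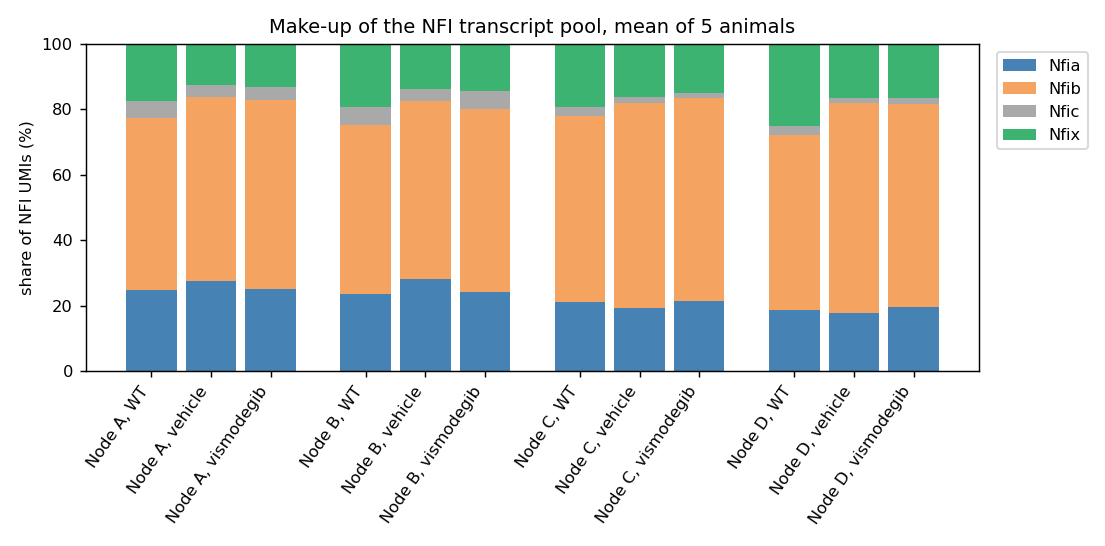
Mean share (%) of each member in the summed NFI transcripts by stage and group, as stacked bars over 5 animals. Nfib takes 51.6 to 64.1% in each bar, and Nfic at most 5.57%.

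The comparison of vismodegib with vehicle asked how the family stood in tumors treated with the SMO inhibitor. The paper reports that Hedgehog target genes were still expressed in the cells left in proliferative Node A of these tumors. Of 28 tests (4 members in 7 classes) 1 passed the threshold, an edgeR quasi-likelihood test with Benjamini-Hochberg adjusted p under 0.05 over all genes tested in the class. It was Nfic in Node B-like cells, the progenitor stage of the tumors. Nfic stood at 187, 156, 179, 201 and 187 CPM in vehicle-treated tumors 1 to 5 and at 262, 347, 241, 302 and 288 CPM in vismodegib-treated tumors 1 to 5. The groups did not overlap, and Nfic was higher by 0.67 ± 0.14 on the log2 scale (SE), a 1.59-fold difference (edgeR, Benjamini-Hochberg adjusted p = 0.0133). In the same class 3.56% of 9908 genes passed. This call was kept under each other setting tried and without each animal in turn, with log2 fold changes of 0.62 to 0.83 (adjusted p from 7.11e-05 to 0.0466).

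Tumor Node B-like cells came from 3 clusters. Cluster 1, led by Atoh1 and Myc among others, held 57.0 ± 5.49% of them in vehicle-treated and 41.9 ± 3.59% in vismodegib-treated tumors, and cluster 9, led by S phase genes such as Ccne2, 18.7 ± 2.45% and 32.8 ± 2.34% (SD over 5 tumors each). The groups did not overlap in either share, and they overlapped in that of cluster 6, at 24.3 ± 5.05% and 25.3 ± 4.32%. In cluster 1 Nfic was at 160.1 ± 25.3 CPM with vehicle (137 to 199.75) and at 328 ± 76.7 CPM with vismodegib (241 to 443). In cluster 9 it was at 204 ± 28.2 CPM (162 to 227) and 276 ± 11.8 CPM (259 to 291). The Nfic levels of the groups did not overlap in either cluster, and they overlapped in cluster 6, at 213 ± 17.0 and 244 ± 63.6 CPM (SD, n = 5 each). Without cluster 6, a choice made after seeing the data, the log2 fold change in Node B-like cells was 0.83.

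**Figure D4:**
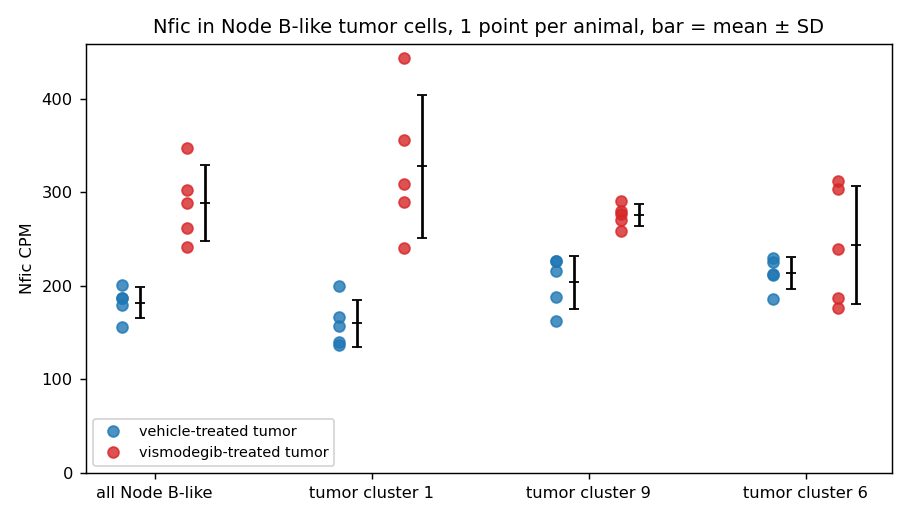
Nfic level (CPM) in tumor Node B-like cells and in each of the 3 clusters that make them up, 1 point per tumor with the mean ± SD of 5. Vismodegib-treated tumors lie above all vehicle-treated tumors in the whole class, in cluster 1 and in cluster 9, and the groups overlap in cluster 6.

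In the other granule stages the Nfic difference did not pass. In Node A-like cells Nfic was at 159, 169, 176, 196 and 181 CPM with vehicle and 232, 232, 168, 228 and 223 CPM with vismodegib. Vismodegib-treated tumor 3 lay among the vehicle-treated tumors and the other 4 above them, with a log2 difference of 0.30 ± 0.13 (edgeR adjusted p = 0.394). In Node A-like cells none of the 4 members passed, where 2.18% of genes did. In Node C-like cells Nfic differed by -0.23 ± 0.15 (edgeR adjusted p = 0.79) and none of the 4 passed, where 0.317% of genes did. In Node D-like cells none of the 4 passed, where 0.201% of genes did, and the Nfic difference was 0.02 ± 0.19. Calls over all genes in Node D-like cells were few, with 8 of 14 in the higher direction, and 2 of 7 with library totals only.

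The 3 abundant members had no called difference between treatments in any of the 7 classes. Nfib in Node C-like cells, its peak stage, was at 7248, 3757, 6666, 4904 and 4639 CPM with vehicle and 5690.4, 6899, 5549, 4153 and 4421 CPM with vismodegib. The ranges overlapped over most of their width, and the log2 difference was -0.02 ± 0.19 (edgeR adjusted p = 0.995). Nfia in Node B-like cells differed by -0.25 ± 0.23 (edgeR adjusted p = 0.664) and Nfix in Node A-like cells by 0.24 ± 0.17 (edgeR adjusted p = 0.672). In CGNP-like cells vehicle-treated tumors 1 and 3 were the 2 highest of their group for all 3 members, and vismodegib-treated tumor 2 was the highest of its group. The standard errors of the 3 members in the 4 stages ran from 0.14 to 0.23 on the log2 scale, and differences a few times as large would be needed for a call.

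In CGNP-like cells as a whole none of the 4 passed, where 12.9% of genes did, with log2 differences of -0.09 ± 0.23 for Nfia, 0.16 ± 0.21 for Nfib, 0.12 ± 0.12 for Nfic and 0.24 ± 0.15 for Nfix. In astrocyte-like cells none of the 4 passed, where 0.654% did, and in oligodendrocyte-like cells none of the 4 passed, where 4% did. The largest of these glial differences was Nfia in oligodendrocyte-like cells, at 589, 329, 888, 426 and 314 CPM in 5 vehicle-treated and 251, 235, 319 and 212 CPM in 4 vismodegib-treated tumors. The ranges overlapped, and the log2 difference was -0.86 ± 0.32 (edgeR adjusted p = 0.168). Granule lineage genes stood at 13.7% of their CGNP-like level in these vehicle-treated cells and at 4.40% in the vismodegib-treated ones, and the part of such RNA was not tested. In oligodendrocyte-like cells 65.6% of the calls over all genes were higher, and 47.7% with library totals only. At an unadjusted p under 0.05, edgeR had 1 of the 4 members in Node A-like cells (Nfic), 1 in oligodendrocyte-like cells (Nfia) and 0 in Node C-like, Node D-like, CGNP-like and astrocyte-like cells. Over all genes that p was reached by 1193 of 10174 in Node A-like and 493 of 3204 in oligodendrocyte-like cells. In Node C-like, Node D-like, CGNP-like and astrocyte-like cells it was 647 of 8193, 537 of 6974, 3179 of 12410 and 233 of 2599. DESeq2, with its own adjusted p, called 0 of the 4 in each of these 6 classes, where it called from 26 (astrocyte-like) to 2239 genes (CGNP-like). Over all 28 tests the median log2 difference of the members was −0.00073.

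Since the stages took different shares of the cells in the 2 treatment groups, each member was also compared with equal weight for each of the 4 stages. The difference of mean log2(CPM + 10) was 0.00 for Nfia, 0.02 for Nfib, 0.17 for Nfic and 0.03 for Nfix. By a 2-sided exact permutation test over 252 arrangements the p-values were 0.992, 0.952, 0.0952 and 0.865, with a Benjamini-Hochberg adjusted p over the 4 comparisons of 0.381 for Nfic. None passed the threshold.

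**Figure D5:**
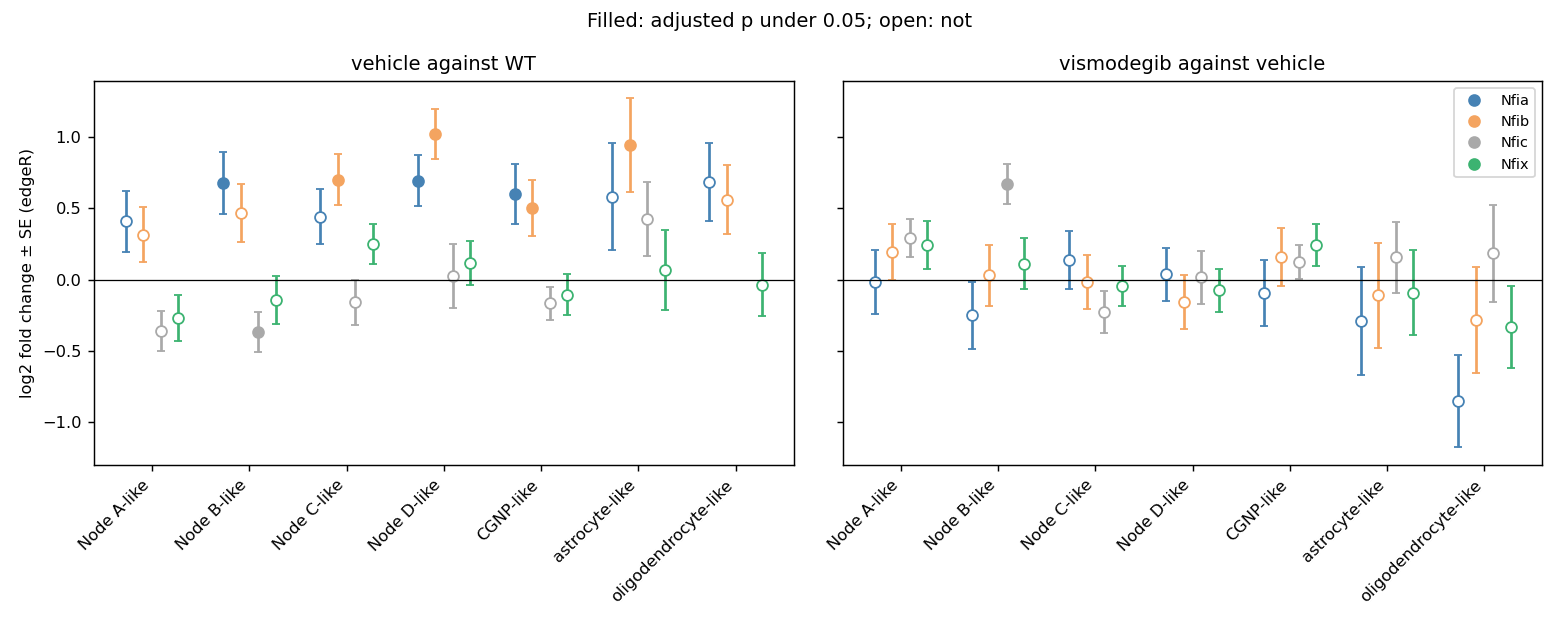
Log2 fold change ± SE (edgeR) of each NFI gene in 7 cell classes, for vismodegib against vehicle and for vehicle-treated tumors against WT. Filled points passed an adjusted p under 0.05, which was 1 of 28 for vismodegib against vehicle (right) and 8 of 27 for vehicle-treated tumors against WT (left).

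The comparison of vehicle-treated tumors with WT asked how the family differed between tumor and normal cells of a like stage, with age and device differing too. Of 27 tests 7 were higher and 1 was lower in tumors, and these belonged to Nfia, Nfib and Nfic. The background was high, since 26.5% of genes passed in Node D-like, 29.3% in Node C-like, 34.6% for Node A-like, 37.9% for Node B-like and 44.3% in CGNP-like cells, with 22.9% for astrocyte-like and 26.8% for oligodendrocyte-like cells. Against this, the members had 2 of 4 called in Node D-like, 1 in Node C-like, 0 for Node A-like, 2 for Node B-like and 2 in CGNP-like cells, with 1 of 4 for astrocyte-like and 0 of 3 for oligodendrocyte-like cells. Where edgeR called 0, an unadjusted p under 0.05 was reached by 1 member in Node A-like (Nfic) and 2 in oligodendrocyte-like cells (Nfia and Nfib), and DESeq2 called 0 in both. Over all genes that p was reached by 4415 of 10022 and 916 of 2411 in these classes, and DESeq2 called 4680 and 859 genes. CGNP-like cells hold the cells of the 4 stages, so their tests repeat those of the stages. Over all classes 8 of 27 is close to these shares. With library totals only, in place of TMM factors, the median gene rose by 0.13 to 0.22 on the log2 scale in the 4 stages rather than by 0.02 to 0.06, and higher calls made up 57.0, 61.9, 62.7 and 60.3% of calls in Node A-like to Node D-like cells against 48.0, 46.3, 47.7 and 47.6%. In astrocyte-like cells that share was 59.0% against 49.3%, in oligodendrocyte-like cells 61.2% against 50.4%, and in CGNP-like cells it was 54.4% against 47.7%.

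The difference that stood furthest above the animal spread was Nfib late in the lineage. In Node D-like cells Nfib was at 1740.0, 1857, 1978, 2334 and 2267 CPM in WT and at 5884, 3357, 5560.1, 3948 and 3785 CPM in vehicle-treated tumors. The lowest tumor lay above the highest cerebellum, and Nfib was higher by 1.02 ± 0.17 on the log2 scale, 2.03-fold (edgeR, Benjamini-Hochberg adjusted p = 7.21e-05). In Node C-like cells it was at 2485, 2716, 2985, 3258 and 3524 CPM and 7248, 3757, 6666, 4904 and 4639 CPM. Again the groups did not overlap, with a log2 difference of 0.70 ± 0.18 (edgeR adjusted p = 0.00557). Both calls were kept in each other setting and without each animal in turn. Node D-like cells of vehicle-treated tumors came from clusters 3, 8 and 11, of which cluster 11, with 37.1 ± 19.1% of them (SD over 5 tumors), scored higher for Node C than for Node D markers and had the highest Nfib level (5530 ± 1672 CPM). In clusters 3 and 8 Nfib was at 3616 ± 827 and 4386 ± 1096 CPM, and the lowest tumor in each (2993 and 3165 CPM) also lay above the highest cerebellum.

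Nfib in the dividing stages was less apart. It differed by 0.32 ± 0.19 in Node A-like cells (edgeR adjusted p = 0.222) and by 0.47 ± 0.20 in Node B-like cells (edgeR adjusted p = 0.0763), neither of which passed. The Node B-like difference did pass with DESeq2 (0.55, adjusted p = 0.0307), with library totals only (0.65), with no filter (0.70) and without vehicle-treated tumor 2 (0.61) or 4 (0.56), and the Node A-like one with no filter (0.50). Over CGNP-like cells it was higher by 0.50 ± 0.20 (edgeR adjusted p = 0.0472), but the groups overlapped. That call was lost without any of 6 animals, WT 1, 2, 3 or 4 or vehicle-treated 1 or 3, with adjusted p up to 0.106, and the log2 difference then ran from 0.40 to 0.55. It was also lost with the replicate block (edgeR adjusted p = 0.0710), without tumor cluster 6 (0.0610) and with sums thinned to a common total (0.0814).

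Nfia was higher in Node D-like cells as well, at 625, 606, 756, 848 and 697 CPM in WT and 1371, 943, 1654, 1223 and 1024 CPM in vehicle-treated tumors. The groups did not overlap, and the log2 difference was 0.69 ± 0.18 (edgeR adjusted p = 0.00489), kept in each other setting and without each animal. By cluster, Nfia was at 998 to 2185 CPM in cluster 11, above all WT animals, whereas its ranges in clusters 3 (662 to 1646.5 CPM) and 8 (838 to 1579 CPM) overlapped with WT. In Node B-like cells Nfia was at 857, 811, 819.6, 874 and 1065 CPM and 1943, 977, 2579, 1382 and 1166 CPM. Vehicle-treated tumors 1 and 3 were far above WT and tumor 2 lay within it, and the log2 difference of 0.68 ± 0.22 (edgeR adjusted p = 0.0193) became 0.46 without tumor 3 (adjusted p = 0.0595). Over CGNP-like cells it was 0.60 ± 0.21 (edgeR adjusted p = 0.03), and 0.40 without vehicle-treated tumor 3 (adjusted p = 0.0818), 0.58 without WT 1 (0.0591) and 0.56 without WT 2 (0.0675), none of which passed. Node A-like and Node C-like cells had differences of 0.41 ± 0.21 and 0.44 ± 0.19, neither called. Both passed with no filter (0.59 and 0.60) and without vehicle-treated tumor 2 (0.55 and 0.58), and the Node C-like one also with library totals only (0.59) and without vehicle-treated tumor 5 (0.54).

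Nfix had no called difference between tumor and normal cells by edgeR in any of the 7 classes. In Node C-like cells it was at 874, 979, 1044, 1119 and 1067 CPM in WT and 1504, 1238, 1415, 1281 and 1301 CPM in vehicle-treated tumors. The groups did not overlap on library totals, but the TMM-scaled log2 difference of 0.25 ± 0.14 did not pass (edgeR adjusted p = 0.197). It passed with library totals only (0.40, adjusted p = 0.031) and with DESeq2 (0.28, adjusted p = 0.0486). Nfix differed by -0.27 ± 0.16 for Node A-like, by -0.14 ± 0.17 for Node B-like and by 0.12 ± 0.15 for Node D-like cells, none called. With library totals only the Node B-like difference changed sign to 0.03.

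Nfic was the member with a lower call. In Node B-like cells it was at 229, 205, 185, 228 and 186 CPM in WT and 187, 156, 179, 201 and 187 CPM in vehicle-treated tumors, which overlapped. The log2 difference was -0.37 ± 0.14 (edgeR adjusted p = 0.0477), close to the threshold, and it no longer passed in 7 of the other settings or without any 1 of 9 of the 10 animals. In Node A-like cells it was -0.36 ± 0.14 (edgeR adjusted p = 0.0539), and −0.41 without vehicle-treated tumor 4, which passed (adjusted p = 0.0479). The difference in Node C-like cells was -0.16 ± 0.16 and that in Node D-like cells 0.03 ± 0.23, neither called.

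In astrocyte-like cells Nfib was at 955, 1008, 1125, 863 and 1240.0 CPM in WT and 3834, 685, 2690.4, 1558 and 1338 CPM in vehicle-treated tumors. Tumors 1 and 3 were far above and tumor 2 below all WT animals, and the log2 difference was 0.94 ± 0.33 (edgeR adjusted p = 0.0438). It did not pass without 7 of the 10 animals in turn (WT 1, 2, 3, 4 or 5, or vehicle-treated 1 or 3), and was 0.57 without vehicle-treated tumor 1 (adjusted p = 0.150). It was also lost with no filter on low counts (0.70, adjusted p = 0.146), with DESeq2 (0.77, adjusted p = 0.133), with the replicate block (0.75, adjusted p = 0.0985) and with sums thinned to a common total (0.94, adjusted p = 0.0752). Nfia in astrocyte-like cells was not called, but passed with classes from single-cell scores (0.89, adjusted p = 0.0394). Granule lineage genes stood in these cells at 48.2% of their CGNP-like level in vehicle-treated tumors and at 8.38% in WT, and the part such RNA would give was 1772 of the 2021 CPM of Nfib. In oligodendrocyte-like cells Nfia differed by 0.69 ± 0.27 (edgeR adjusted p = 0.0674) and Nfib by 0.56 ± 0.24 (edgeR adjusted p = 0.0909), and Nfic did not pass the filter on low counts (DESeq2 gave −0.048, adjusted p = 0.974). Both the Nfia and the Nfib differences passed with library totals only (0.80 and 0.68) and with classes from single-cell scores (0.83 and 0.77), and Nfia also without vehicle-treated tumor 2 (0.82) or 5 (0.83). Over the 27 tests, which hold the stages again as CGNP-like cells, the median log2 difference of the members was 0.41. By class it was 0.02, 0.16, 0.35 and 0.41 in Node A-like to Node D-like and 0.20 in CGNP-like cells. In astrocyte-like and oligodendrocyte-like cells it was 0.50 and 0.56. The median of all genes was 0.02 to 0.06 in each class, so the members did not stand above it in Node A-like cells.

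Whether the course along the stages differed between groups was tested by the difference of log2(CPM + 10) between Node C-like and Node A-like cells of each animal, over 8 comparisons. Only the 4 members were tested, so the share of all genes that would pass is not known. With vismodegib the rise of Nfib from Node A-like to Node C-like cells was 0.69 ± 0.07, against 0.90 ± 0.07 with vehicle (SD, n = 5), a change of −0.21. The groups did not overlap, and the 2-sided exact permutation p was 0.00794, the smallest that 252 arrangements can give (Benjamini-Hochberg adjusted p = 0.0212). For Nfix the rise was 0.79 ± 0.12 against 1.08 ± 0.17, a change of −0.29 (exact permutation p = 0.0238, adjusted p = 0.0381). The fall of Nfic was −0.78 ± 0.11 against −0.26 ± 0.22, a change of −0.51 (exact permutation p = 0.0159, adjusted p = 0.0317). The groups overlapped for Nfix and for Nfic, where vehicle-treated tumor 4 (−0.65) lay within the vismodegib range of −0.87 to −0.64. For Nfia the rise was 0.37 ± 0.11 against 0.22 ± 0.09, a change of 0.15 that did not pass (exact permutation p = 0.0476, adjusted p = 0.0635). The Nfix change was lost without any of 6 tumors (vehicle-treated 1, 2, 4 or 5, vismodegib-treated 1 or 3, adjusted p 0.0529 to 0.0635), with a pseudocount of 1 CPM (−0.30, adjusted p = 0.0508), with classes from single-cell scores (−0.23, adjusted p = 0.0816) and with cells thinned to 500 UMIs (−0.27, adjusted p = 0.127). The Nfia change passed without vismodegib-treated tumor 2 (0.19, adjusted p = 0.0317) and when animals were permuted within the division of tumors along the first principal component. Without a vismodegib-treated tumor, and within that division, p was adjusted over the 4 members of this comparison only, and not over 8 comparisons.

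The mean make-up of both stages was not the same in the 2 treatments, but the tumors of the groups overlapped in every share given here. In Node A-like cells cluster 10, led by Rrm2 and E2f2, held 19.2 ± 7.45% with vehicle and 37.8 ± 9.21% with vismodegib (SD over 5 tumors each), and Nfib and Nfix were higher there than in cluster 2 (3621 against 2599.9 CPM and 846 against 558 CPM with vehicle). Cluster 2 held 44.5 ± 12.4% and 27.8 ± 4.41% of these cells, and cluster 5, led by mitotic genes, 36.4 ± 10.5% and 34.4 ± 8.74%. In Node C-like cells cluster 4 held 44.4 ± 17.9% and 65.5 ± 7.79%, and cluster 7 the rest. Nfic was higher with vismodegib by mean in each of the 3 Node A-like clusters (181 against 239.7, 157 against 186 and 213 against 235 CPM) and lower in each of the 2 Node C-like clusters (141 against 118 and 153 against 139 CPM). The part of these shares in the stage differences was not tested. Among Node D-like cells cluster 3 held 8.4% to 33.1% in vehicle-treated and 25.5% to 68.1% in vismodegib-treated tumors, and the Nfib level in that cluster was 3616 ± 827 and 3271 ± 647 CPM.

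Against WT, vehicle-treated tumors had a steeper rise of Nfib, of 0.90 ± 0.07 against 0.49 ± 0.11, and of Nfix, of 1.08 ± 0.17 against 0.53 ± 0.15. Both changes, of 0.41 and 0.55, had the smallest p the exact permutation test can give (0.00794, adjusted p = 0.0212), with no overlap between groups. The Nfix change did not pass with cells thinned to 500 UMIs (0.46, adjusted p = 0.0508). Nfia changed by 0.07 (exact permutation p = 0.310) and Nfic by 0.22 (exact permutation p = 0.0952, adjusted p = 0.109), neither of which passed. Without vehicle-treated tumor 4 the Nfic change was 0.32 and passed (adjusted p = 0.0254), and it also passed with classes from single-cell scores. The Nfia change passed with cells thinned to 500 UMIs. Both comparisons share the vehicle-treated tumors.

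As a description, the genes whose mean level over 32 profiles of class and group ran most like each member were found among 9381 genes. Profiles of a group share animals and depth, and no p is given. For Nfia the closest gene was Nfib (Pearson r = 0.937), followed by Cecr2 (0.928), Cdkn1b (0.901), Kdm1a (0.895) and Cbx1 (0.893). For Nfib they were Cdkn1b (0.946), which encodes the cell cycle inhibitor p27, Nfia (0.937), Nhlh2 (0.923), a transcription factor of young neurons, 2700081O15Rik (0.918) and Atxn7l2 (0.912). For Nfix they were C130071C03Rik (0.935), Epc2 (0.930), Celsr2 (0.924), Rnmt (0.923) and Bhlhe22 (0.918). Nfia and Nfix had r = 0.863, and Nfib and Nfix 0.880. Nfic stood apart, with r = 0.262 to Nfia, 0.117 to Nfib and 0.137 to Nfix, and its closest genes were Klf10 (0.713), Spty2d1 (0.657), Mlec (0.631), Swt1 (0.629) and Cd63 (0.627).

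A list of 17 genes linked to NFI proteins by earlier studies was read from the same fits. It holds 7 genes of granule neuron maturation (Gabra6, Grin2c, Wnt7a, Cntn2, Efnb1, Cdh2, Etv1), 5 of gliogenesis (Apcdd1, Mmd2, Zcchc24, Gfap, Fabp7) and 5 entered as repressed by NFI proteins (Hes1, Ezh2, Sox9, Insc, Bbx). The direction in which NFI proteins regulate Insc is in doubt, so its values are not read as those of a repressed gene. The list was chosen with earlier results of these data known, and the paper had named Hes1 as a marker of vismodegib-sensitive cells in these tumors. The shares of all genes given beside the counts of the list are therefore background and no test of it. With vismodegib, 1 was higher and 3 were lower of 11 tested in Node A-like cells (2.18% of all genes called), 0 and 3 of 12 in Node B-like (3.56%), 0 and 0 of 7 in each of Node C-like (0.317%) and Node D-like (0.201%), and 2 and 4 of 13 in CGNP-like cells (12.9%). In Node C-like cells 3 of the 7 had an unadjusted edgeR p under 0.05 and DESeq2 called 0 of them, and in Node D-like cells these were 2 and 1 (Sox9). Over all genes that p was reached by 647 of 8193 and 537 of 6974, and DESeq2 called 68 and 48 genes. DESeq2 also called Hes1, which had not passed the edgeR filter, in Node C-like (−2.98, adjusted p = 0.0137) and Node D-like cells (−2.66, adjusted p = 0.0162). In astrocyte-like cells 1 was higher and 0 were lower of 9 (0.654%), and in oligodendrocyte-like cells 0 and 1 of 4 (4%). The median log2 difference of the list in CGNP-like cells was −0.08, where that of all genes was 0.00.

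Among genes of granule maturation, Cntn2, a contactin that NFI proteins are known to switch on in young granule neurons, rose in CGNP-like cells. It was at 198 to 461 CPM with vehicle and 547 to 932 CPM with vismodegib. The groups did not overlap, and the log2 difference was 1.13 ± 0.21 (edgeR adjusted p = 0.00327). The stages took different shares of the cells, with Node B-like cells at a mean of 44.55% with vehicle and 20.7% with vismodegib and Node D-like cells at 8.24% and 33.5%, so values over CGNP-like cells also carry this difference. Within stages Cntn2 was called in Node A-like cells (1.08, edgeR adjusted p = 0.043) and not in Node B-like (0.46), Node C-like (0.48) or Node D-like cells (0.19). Etv1 fell by 1.53 (edgeR adjusted p = 0.00807), from a mean of 12.4 to 4.06 CPM, the ranges overlapping. Cdh2 and Efnb1 had means of 97.9 and 104 CPM and of 12.2 and 11.5 CPM, not called. Gabra6, the GABA receptor subunit of mature granule neurons, had means of 1.007 CPM with vehicle and 4.60 CPM with vismodegib in CGNP-like cells and did not pass the edgeR filter, like Grin2c and Wnt7a. DESeq2, run without that filter, called Gabra6 higher there (2.27, adjusted p = 0.000681) and not in Node D-like cells (0.36, adjusted p = 0.985), gave 0.77 for Grin2c (adjusted p = 0.571) and no adjusted p for Wnt7a.

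Among the genes entered as repressed by NFI proteins, Hes1 and Sox9 fell with vismodegib. Hes1, a Notch and Hedgehog responsive repressor, was at 138 ± 37.8 CPM with vehicle and 7.80 ± 2.13 CPM with vismodegib in CGNP-like cells (SD, n = 5 each), a log2 difference of -4.10 ± 0.24 (edgeR adjusted p = 1.42e-06). Sox9 went from 139.7 to 273 to 65.7 to 85.4 CPM, a difference of -1.50 ± 0.18 (edgeR adjusted p = 0.000225). Neither gene had overlapping groups, and both also fell within Node A-like and within Node B-like cells. Ezh2, which encodes the methyltransferase of Polycomb complex PRC2, was not called, with means of 861 and 731 CPM. In Node B-like cells it was at 732 and 934 CPM, without overlap between groups, a log2 difference of 0.36 that edgeR did not call (adjusted p = 0.149) and DESeq2 did (adjusted p = 0.0136). Insc was at a mean of 2.37 CPM with vehicle and 5.48 CPM with vismodegib in CGNP-like cells, a log2 difference of 1.26 ± 0.46 that was not called (edgeR adjusted p = 0.0902, DESeq2 0.0548), and Bbx was at 103 and 93.3 CPM, not called (edgeR adjusted p = 0.552). Among gliogenesis genes, Mmd2 rose by 1.03 (edgeR adjusted p = 0.0369) and Zcchc24 fell by 1.52 (edgeR adjusted p = 0.0118) in CGNP-like cells, with vehicle means of 13.7 and 8.66 CPM. Mmd2 was called in none of the 4 stages (log2 differences of 0.22 to 0.88, edgeR adjusted p of 0.346 to 0.856, DESeq2 0.397 to 0.976), with an unadjusted edgeR p under 0.05 in 1 of them, and Zcchc24 fell in Node B-like cells (by 1.88, edgeR adjusted p = 0.0082). Apcdd1 did not pass the edgeR filter, and DESeq2 called it lower in CGNP-like cells (−2.66, adjusted p = 8.00e-05), at a mean of 0.882 against 5.91 CPM.

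In glia, Gfap, the intermediate filament of astrocytes, was at 168 to 762 CPM in 5 vehicle-treated and 513 to 2056 CPM in 5 vismodegib-treated tumors in astrocyte-like cells. The groups overlapped, and Gfap was higher by 1.85 ± 0.37 (edgeR adjusted p = 0.0243). Granule lineage genes stood in these cells at 48.2% and 25.5% of their CGNP-like level, and their part in this was not tested. Fabp7, a lipid-binding protein of glial progenitors, was lower in oligodendrocyte-like cells, at 2498 against 902 CPM by mean, by -1.34 ± 0.31 (edgeR adjusted p = 0.0192).

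Against WT, where more of all genes were called, 3 of the list were higher and 4 lower of 10 tested for Node A-like (34.6% of all genes called), 4 and 3 of 10 for Node B-like (37.9%), 2 and 4 of 8 for Node C-like (29.3%) and 2 and 4 of 7 for Node D-like cells (26.5%). For CGNP-like cells they were 5 and 4 of 14 (44.3%), for astrocyte-like cells 1 and 2 of 8 (22.9%) and for oligodendrocyte-like cells 2 and 0 of 5 (26.8%). In CGNP-like cells 3 of the 5 genes entered as repressed were higher. Hes1 was higher by 4.64 ± 0.24 (edgeR adjusted p = 1.77e-08). Sox9 was higher by 1.51 ± 0.19 (edgeR adjusted p = 2.19e-05) and Ezh2 by 1.39 ± 0.22 (edgeR adjusted p = 0.000152). Bbx was at 103 against 93.4 CPM, not called. Insc, an adaptor of spindle orientation, was lower, at a mean of 2.37 against 16.9 CPM, by -2.92 ± 0.37 (edgeR adjusted p = 2.22e-05). Since the direction of its regulation by NFI proteins is in doubt, Insc is not read as an exception among repressed genes. Of the granule maturation genes, Efnb1, an ephrin ligand, and Cdh2, which encodes N-cadherin, were lower in all 4 stages, with CGNP-like differences of -1.59 ± 0.19 (edgeR adjusted p = 1.39e-05) and -0.92 ± 0.15 (edgeR adjusted p = 0.000221). Of the gliogenesis genes, Fabp7 was lower in all 4, by -1.49 ± 0.35 in CGNP-like cells (edgeR adjusted p = 0.00284), whereas Gfap and Zcchc24 were higher in CGNP-like cells, by 0.99 ± 0.35 (edgeR adjusted p = 0.0309) and 1.58 ± 0.45 (edgeR adjusted p = 0.0103), and Mmd2 and Apcdd1 were not called. Gfap was also higher in Node B-like cells (2.25, edgeR adjusted p = 0.000713).

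Cntn2 changed direction along the lineage. In tumors it was lower in Node A-like cells, at a mean of 85.6 against 144 CPM (-0.91 ± 0.23, edgeR adjusted p = 0.00396). It was higher in Node C-like cells, at 1092 to 2012 CPM against 364 to 791 CPM (1.03 ± 0.20, edgeR adjusted p = 0.000425), and in Node D-like cells, at 631 to 1216 CPM against 228 to 376 CPM (1.30 ± 0.21, edgeR adjusted p = 2.51e-05). The difference between stages was not tested.

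The promoters of the members and of the listed genes were searched for the NFI site, where a window was given, in RefSeq windows on GRCm38.p6 from 250 bases before to 50 after a start. The core TTGGC or its complement GCCAA, both strands being searched, was present in 9 of the 12 listed genes that had a window (Hes1, Sox9 and Cdh2 were among those without) and in 46.7% of all 32851 windows. A listed gene counted if any of its windows held the core, whereas the background counts single windows, so the units are not alike. The palindrome of TTGGC, 5 bases and GCCAA was in 0 of the 12 and in 0.0365% of all windows. Among the members with a window (Nfia, Nfic and Nfix) the core was found for Nfix only, which had more windows than the others. The Nfia window (chr4:97581693-97581992) lay before the Nfia position given above, so the start at that position was not searched. The windows of Nfic (chr10:81427124-81427423) and Nfix (up to chr8:84780332) lay inside the positions given above. The starts at the outer ends of those positions, chr10:81455635 and chr8:84800344 on the minus strand, were therefore not searched either. A match is a stretch of letters and not a bound site. The 250 bases before the start are shown for Cntn2, called in CGNP-like cells with vismodegib, for Ezh2, called there against WT, for Efnb1, lower in tumors in all 4 stages, and for 1 start of the member Nfix, written 5′ to 3′ with each core in capitals.
Cntn2 (chr1:132542941-132543190, minus strand): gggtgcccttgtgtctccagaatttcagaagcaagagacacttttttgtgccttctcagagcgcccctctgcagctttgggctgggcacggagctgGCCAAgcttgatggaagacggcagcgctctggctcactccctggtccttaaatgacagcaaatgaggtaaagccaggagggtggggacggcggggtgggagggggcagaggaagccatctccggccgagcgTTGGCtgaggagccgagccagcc
Ezh2 (chr6:47595031-47595280, minus strand): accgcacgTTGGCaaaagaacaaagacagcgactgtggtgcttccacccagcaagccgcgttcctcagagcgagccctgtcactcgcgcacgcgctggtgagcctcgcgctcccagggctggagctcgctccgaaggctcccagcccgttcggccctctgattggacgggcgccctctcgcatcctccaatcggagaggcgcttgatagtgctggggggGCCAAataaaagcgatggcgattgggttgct
Efnb1 (chrX:99135811-99136060, plus strand): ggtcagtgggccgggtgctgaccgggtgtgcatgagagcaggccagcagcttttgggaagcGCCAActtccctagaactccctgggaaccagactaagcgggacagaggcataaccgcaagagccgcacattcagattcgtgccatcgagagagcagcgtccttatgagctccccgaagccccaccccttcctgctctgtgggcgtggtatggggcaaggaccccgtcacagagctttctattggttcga
Nfix (chr8:84775829-84776078, minus strand): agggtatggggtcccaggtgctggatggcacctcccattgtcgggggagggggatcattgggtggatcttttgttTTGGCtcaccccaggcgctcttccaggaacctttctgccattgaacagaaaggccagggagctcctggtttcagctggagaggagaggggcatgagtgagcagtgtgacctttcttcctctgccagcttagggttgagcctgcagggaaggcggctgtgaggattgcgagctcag

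In the bases shown the core lay at 154 and 23 bases before the start in Cntn2, at 242 and 31 in Ezh2, at 189 in Efnb1 and at 175 in Nfix. The windows of Ezh2 and Efnb1 held 1 further core each, after the start. The number of cores was not set against the direction of change.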

How the data were processed

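Single cells of 15 mice, 5 per group, were profiled by Drop-seq. The authors made the counts with Drop-seq Tools and STAR, and the submitters' processing notes list bcl2fastq 2.18, STAR, Seurat 2.3.0 and the builds mm10 and hg19. For tumors a joint human and mouse alignment set aside a spike-in of human HEK 293 cells before the reads were mapped to mouse plus the transgenes. The deposited values are raw UMI counts per gene and barcode, not normalized. The annotation version behind the counts was not given in the sources used.

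Barcodes with at least 500 UMIs and 500 genes, and within 5 SD of their animal's median on the upper side (UMIs, genes, mitochondrial share), were kept (30722 of 36841 in tumors), with medians of 1082.5 to 1625 UMIs per cell in WT, 1141 to 2597 in vehicle-treated and 1183.5 to 2368 in vismodegib-treated mice. Doublets were limited only by the upper filters. Tumor and WT cells were clustered apart (958 and 1419 variable genes, 7 and 11 principal components, Louvain resolution 0.8) in Python 3.11.15 with scikit-learn 1.9.0, igraph 0.11.9, pandas 2.3.3, numpy 2.4.6 and scipy 1.17.1. The 4 members, the 17 linked genes and the hemoglobin genes took no part in the clustering. Hemoglobin genes were held out, and a pair of clusters left unnamed, after clusters had been seen. The members, gene lists and tests were chosen with earlier results of these data known. Named are the members, the linked genes and, for each member, the 5 genes with the highest Pearson correlation over class means of at least 3 animals, among genes with at least 50 CPM in 1 of them.

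Counts were summed per animal and class (at least 10 cells) and tested in R 4.3.3 with edgeR 4.0.16 (TMM, filterByExpr, quasi-likelihood test, Benjamini-Hochberg over all genes tested), called at an adjusted p under 0.05. CPM are on library totals, whereas fold changes are TMM-scaled. Stage-weighted levels and stage differences were compared by 2-sided exact permutation of animals, with a pseudocount of 10 CPM on the log2 scale. Scripts were tested on simulated data. Other settings were RLE factors, no filter, DESeq2 1.42.0, a block for the replicate number, a term for the division of tumors along the first principal component, classes from single-cell scores, thinning to 500 UMIs, a pseudocount of 1 CPM and leaving out each animal. Library totals only, sums thinned to a common total and leaving out tumor cluster 6 were added after seeing the data. Mice within a group are separate animals. Figures were drawn with matplotlib 3.10.9.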

Additional observations from a re-analysis of the deposited data

Results flagged for a closer look

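Over 132 sets of 4 or 5 animals (a member in a class and group), 8 held a highest or lowest animal further from the others than Dixon's 95% limit allows, and chance flags about 1 in 20 groups. Nfia in Node B-like cells of WT 5 was at 1065.2 CPM, against 811 to 874 CPM in the other 4. Nfic in CGNP-like cells of WT 1 was at 211.96 CPM, against 166 to 179 CPM. In Node A-like cells of vismodegib-treated tumor 3 Nfic was at 168.31 CPM, below 223 to 232 CPM in the other 4, and in Node C-like cells of vehicle-treated tumor 4 it was at 121.08 CPM, below 146 to 154 CPM. Nfix in Node D-like cells of vismodegib-treated tumor 2 was at 1434.7 CPM, above 884 to 1043 CPM. In small classes of 4 animals, Nfia in endothelial-like cells of vismodegib-treated tumor 5 was at 253.28 CPM (415 to 434 CPM in the others), Nfic in those of vismodegib-treated tumor 4 at 217.17 CPM (131 to 144 CPM), and Nfib in the unnamed cluster led by Cbln3 in vehicle-treated tumor 1 at 2010.9 CPM (857 to 1014 CPM).

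The change from Node A-like to Node C-like cells differed between groups by a 2-sided exact permutation test for 3 members with vismodegib against vehicle, by −0.21 for Nfib, −0.51 for Nfic and −0.29 for Nfix on the log2 scale, and for 2 members with vehicle against WT, by 0.41 for Nfib and 0.55 for Nfix.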

How the results depend on the processing

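The values are log2 differences unless called counts. Nfic in Node B-like cells (vismodegib against vehicle), and Nfib in Node C-like and both Nfia and Nfib in Node D-like cells (vehicle against WT), passed in every setting tried and without each animal. Where a call was lost or a sign turned below, the cause was not tested.

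Calls lost, vehicle against WT: Nfic in Node B-like cells was −0.20 with library totals only, −0.36 with RLE factors, −0.13 with no filter, −0.30 with DESeq2, −0.36 with the replicate block, −0.35 with single-cell classes and −0.31 with thinned sums. Nfib in CGNP-like cells was 0.47 with the replicate block, 0.47 without cluster 6 and 0.45 with thinned sums. Nfib in astrocyte-like cells was 0.70 with no filter, 0.77 with DESeq2, 0.75 with the replicate block and 0.94 with thinned sums. Of the stage differences, Nfix with vismodegib was lost with a pseudocount of 1 CPM (−0.30), with single-cell classes (−0.23) and at 500 UMIs (−0.27), and Nfix against WT at 500 UMIs (0.46). The stage difference of Nfia passed with vismodegib within the divisions of tumors (0.15) and against WT at 500 UMIs (0.31), and that of Nfic against WT with single-cell classes (0.28).

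Signs turned only for values that had not passed. With vismodegib these were Nfia in Node A-like cells (0.021 with the replicate block, 0.015 with the term for the division), Nfib in Node B-like (−0.0084, no filter), Nfib in Node C-like (0.0018 with single-cell classes, 0.0019 with the term), single-cell classes in Node D-like (Nfia −0.22, Nfic −0.060, Nfix 0.035) and in oligodendrocyte-like cells (Nfib 0.47, Nfix 0.28), Nfib in astrocyte-like cells (0.025 with no filter, 0.039 with the block, 0.038 with the term) and Nfix there (0.015, no filter), and the stage-weighted level of Nfia (−0.056, single-cell classes). Against WT they were Nfix in Node B-like (0.030 with library totals only, 0.089 with no filter), Nfic in Node C-like (0.055) and Nfix in Node D-like (−0.10) with single-cell classes, Nfic (0.030) and Nfix (0.10) in CGNP-like with no filter, Nfic in astrocyte-like (−0.12, single-cell classes), Nfix there (−0.14 with no filter, −0.090 with DESeq2, −0.011 with single-cell classes), and Nfix in oligodendrocyte-like cells (0.086 with library totals only, 0.51 with single-cell classes, 0.15 with thinned sums).

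Without each animal in turn, vehicle against WT ran from 0.40 to 0.75 for Nfia in CGNP-like and 0.46 to 0.83 in Node B-like, 0.40 to 0.63 for Nfib in CGNP-like and 0.57 to 1.14 in astrocyte-like, −0.39 to −0.30 for Nfic in Node B-like and −0.079 to 0.12 in Node D-like, −0.18 to 0.23 for Nfix in astrocyte-like and −0.14 to 0.070 in oligodendrocyte-like cells. Vismodegib against vehicle ran from −0.23 to 0.12 for Nfia in CGNP-like, −0.17 to 0.18 in Node A-like, −0.10 to 0.17 in Node D-like and −0.51 to 0.11 in astrocyte-like, −0.10 to 0.16 for Nfib in Node B-like, −0.12 to 0.091 in Node C-like, −0.32 to 0.26 in astrocyte-like and −0.70 to 0.044 in oligodendrocyte-like, −0.060 to 0.11 for Nfic in Node D-like, and −0.054 to 0.21 for Nfix in Node B-like, −0.16 to 0.0099 in Node C-like and −0.27 to 0.14 in astrocyte-like cells. Stage-weighted levels ran from −0.13 to 0.17 for Nfia, −0.10 to 0.13 for Nfib and −0.090 to 0.12 for Nfix, and stage differences from 0.11 to 0.19 for Nfia and −0.36 to −0.26 for Nfix with vismodegib and from 0.18 to 0.32 for Nfic against WT.

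The number of genes called with vismodegib was 222 in Node A-like (389 no filter, 384 DESeq2, 481 with the term), 353 in Node B-like (629 DESeq2, 918 term), 26 in Node C-like (131 no filter, 68 DESeq2, 56 replicate block, 116 term), 14 in Node D-like (7 library totals only, 130 no filter, 48 DESeq2, 29 block, 97 term), 1602 in CGNP-like (2642 term), 17 in astrocyte-like (103 no filter, 26 DESeq2, 8 block, 27 term) and 128 in oligodendrocyte-like cells (281 no filter, 193 term). Classes from single-cell scores gave 132 in Node C-like, 402 in Node D-like and 700 in astrocyte-like cells with vismodegib and 893 in astrocyte-like cells against WT (562). Without each animal in turn the counts ran from 144 to 242 in Node A-like, 224 to 374 in Node B-like, 4 to 43 in Node C-like, 2 to 25 in Node D-like, 1 to 19 in astrocyte-like and 30 to 264 in oligodendrocyte-like cells. Against WT, no filter gave 5507, 6165, 3766 and 2346 calls in Node A-like to Node D-like, 1266 in astrocyte-like and 1304 in oligodendrocyte-like cells, from 3469, 3738, 2290, 1543, 562 and 647. Thinned sums gave 1413, 1891, 1219, 689, 182 and 404 in the same classes, and 3685 in CGNP-like cells from 5569.

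The labels do not say that replicate numbers pair animals, and the values here cannot settle it. Same-numbered animals deviated together with correlations of 0.0814, −0.274, 0.000512, 0.378 and 0.367 between the tumor groups and −0.273 to 0.0271 between vehicle and WT, and 1 of 5 numbers correlated best with itself in the former. With median depths of 1082.5 to 2597 UMIs per cell, classes of few cells limit the small levels, such as Nfic in endothelial-like cells.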

Other observations

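The 4 tumors on the positive side of the first principal component (2 of each treatment) and the other 6 differed in the levels of the members in CGNP-like cells. These groups were formed from the data and are not groups of the study, so no test is given. Nfia was at 1523 to 2396 CPM in the 4 and at 966 to 1397 CPM in the 6. Nfix was at 921 to 1293 CPM and 687 to 894 CPM, whereas Nfic was at 168 to 227 CPM and 156 to 179.6 CPM, which overlap. Their median UMIs per cell were 1141 to 2181 and 1756 to 2597, and their mitochondrial shares 1.45 to 2.52% and 1.69 to 3.10%. Vismodegib-treated tumor 3 lay close to the middle of the component.

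Microglia-like cells of vehicle-treated tumors had 753 ± 345 CPM of Nfib (SD, n = 4), with granule lineage genes at 23.4% of their CGNP-like level, and the Nfib level was above the part such RNA would give in 2 of 4 tumors. In vismodegib-treated tumors these values were 469.9 ± 249 CPM (n = 5), 9.83% and 5 of 5 tumors.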
